A study of Mus musculus with 16 samples.

Results

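The 9 genes described here encode the receptor of type I interferon and the transcription factors that make cells produce interferon or answer it: Ifnar1, Ifnar2, Stat2, Irf9, Irf3, Irf7, Irf5, Irf1 and Irf2. They were taken by symbol from the 30141 Ensembl gene rows of the deposited count files, with no measured value used in the choice. RNA came from mouse LSK cells, the lineage-negative, Sca1-positive, Kit-positive bone marrow cells that hold blood stem cells and early progenitors. The study asked how azacitidine, a cytidine analogue that disables DNA methyltransferases, acts on cells with the DNMT3A hotspot mutation R882H.

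The 16 libraries fall into 4 groups: 5 of R882H with azacitidine, 4 of R882H with NaCl, 3 of WT with azacitidine and 4 of WT with NaCl. R882H cells carried wild-type mouse Dnmt3a and, in addition, a knocked-in human DNMT3A with the mutation behind a Lox-Stop-Lox cassette, made in C57BL/6N embryonic stem cells. WT cells carried wild-type mouse Dnmt3a. The cassette was opened by Mx1-Cre, whose promoter itself answers to interferon, and donors of both genotypes were given poly(I:C), an interferon inducer, at 15 µg per g on 3 nonconsecutive days. The labels also give 400 µg doses and do not say which animals had them, nor which WT donors carried Cre. No group without poly(I:C) was analysed here. Donor marrow, harvested after 4 weeks, was transplanted together with an equal part of competitor marrow of the other CD45 allele. Treated recipients were given 2.5 mg per kg azacitidine in a cycle of 5 days of dosing, 2 of rest and 5 more of dosing, and control recipients were given 0.9% NaCl. The mice were age-matched, with no age given. The labels do not say whether the sort parted donor from competitor and host cells, or whether each library is 1 animal, so p-values measure the spread between these libraries.

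Type I interferon binds a receptor made of the subunits IFNAR1 and IFNAR2, and the kinases on the receptor then activate STAT2. It joins IRF9 in the complex ISGF3, which binds interferon-stimulated response elements (ISRE) and switches on antiviral genes, Irf7 and Stat2 among them. IRF3 and IRF7 drive transcription of the interferon genes when nucleic acid sensors fire, IRF5 does so downstream of Toll-like receptors, IRF1 activates many interferon gamma targets, and IRF2 competes with IRF1 for the same DNA. In blood stem cells interferon is known to break dormancy, and a lack of IRF2 is known in mice to exhaust these cells through unchecked interferon signalling.

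All 9 genes were expressed in every library, and none passed the test in any comparison. Irf7 gave the lowest p of the 9 in 3 of the 5 comparisons. It was lower in each of the 3 WT libraries with azacitidine than in each of the 4 with NaCl, by 0.93 on the log2 scale. In R882H its group means were equal, at 42.3 CPM with azacitidine and with NaCl, and the fitted difference was 0.56 in libraries numbered 1 and 2 and -0.47 in those numbered 3 and above. In WT it was -1.21 and -0.52 in the same sets, the last from 1 treated library. Much of the remaining variation lay inside groups: among NaCl controls, Ifnar1, Stat2, Irf9, Irf1 and Irf5 were lower in every library numbered 1 or 2 than in every library numbered 3 or 4, as were 15.0% of all tested genes.

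Total counts ran from 35860445 to 56012766 per library, and repeat families took 2.97 to 10.1% of them. The highest shares were 10.1% in WT with azacitidine replicate 1 and 6.81% in R882H with NaCl replicate 1. Both libraries were left out together in an alternative fit. The 12 LSK markers, such as Kit, Ly6a and Hoxa9, were detected in every library, and their summed level was lowest in R882H with NaCl replicate 2, at 1963 CPM, and highest in replicate 3 of that group, at 5340 CPM. The first principal component parted libraries numbered 1 and 2 from those with higher numbers in every group but R882H with azacitidine, and R882H with NaCl replicate 1 stood apart on the second. What the numbers stand for is not given in the sources used here. The split by number was made with these components known, so differences across it are given with no test. In bulk RNA, fewer cells of a type and less RNA per cell cannot be told apart.

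Levels are given in CPM, the gene's counts scaled to the TMM-normalised size of the library, and fitted differences on the log2 scale with their standard error. To rank genes against each other, the authors' FPKM values, which divide by gene length, were averaged over the 16 libraries. Irf1 was highest at 41.0 FPKM, followed by Ifnar2 at 36.1 and Irf3 at 33.5. Irf9 stood at 20.8 FPKM, Irf2 at 15.8, Irf5 at 14.3 and Ifnar1 at 13.9. Irf7 at 10.3 and Stat2 at 9.66 FPKM were lowest. The steps from Irf3 to Irf9 and from Irf9 to Irf2 held in 16 of 16 libraries. The other neighbours did not separate: Irf1 exceeded Ifnar2 in 12 libraries, Ifnar2 exceeded Irf3 in 11, Irf2 exceeded Irf5 in 12, Irf5 exceeded Ifnar1 in 8, Ifnar1 exceeded Irf7 in 14 and Irf7 exceeded Stat2 in 10. Across all 16 libraries the CPM of Irf3 and Ifnar2 varied least, with coefficients of variation of 9.26% and 10.05%, and that of Irf7 varied most, at 27.0%.

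**Figure D1:**
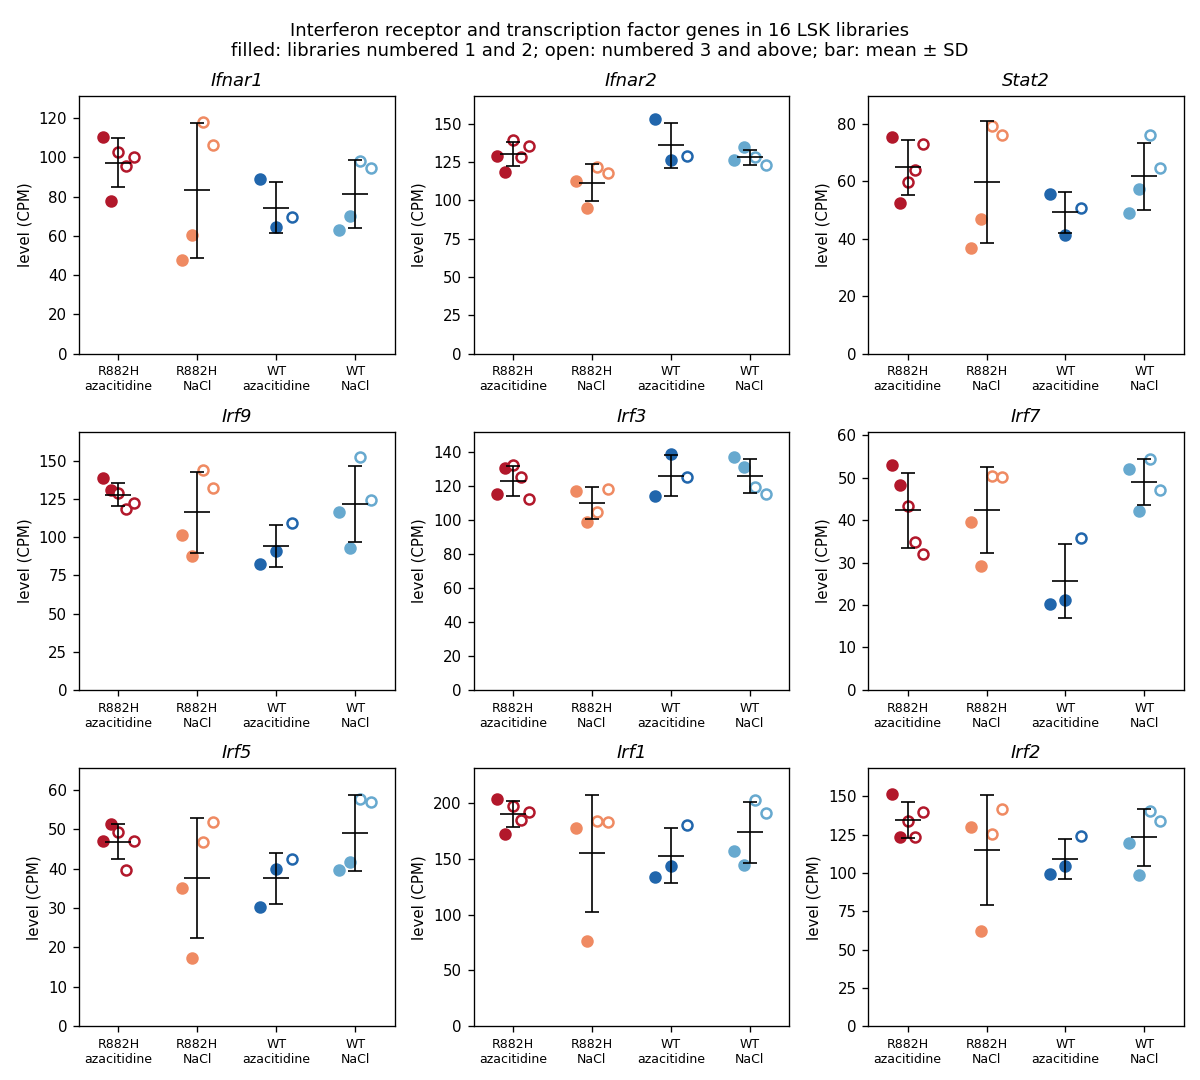
Level of each of the 9 genes in CPM (linear axis from 0) in every library, with 1 panel per gene and the groups in the order R882H with azacitidine, R882H with NaCl, WT with azacitidine and WT with NaCl; filled points are libraries numbered 1 and 2, open points those numbered 3 and above, and bars are mean ± SD. Irf7 lies between 20.2 and 35.7 CPM in WT with azacitidine, below all 4 WT libraries with NaCl, and the filled points lie below the open ones among NaCl controls for Ifnar1, Stat2, Irf9, Irf5 and Irf1.

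The promoters are printed because members of this pathway are themselves interferon targets and because azacitidine lowers DNA methylation, which sits at CpG sites, and the windows hold unequal numbers of these. RefSeq windows of 300 bases on GRCm38.p6, from 250 bases before the transcript start to 50 from it, were found for all 9 genes. They were searched on both strands for the ISRE core, which is GAAA, any 2 bases and GAAA again, and for the STAT motif TTCNNNGAA (GAS), which do not overlap in these windows. Of 32851 such windows of mouse genes, 3.44% held the ISRE core, 8.30% the GAS motif and 11.3% either. The windows of 5 of the 9 genes held a match, in capitals below, and those of Irf3, Irf5, Irf7 and Irf9 held none. Only exact matches were counted, so a gene with none can still have a response element of another sequence or outside the window. Positions count from the first transcribed base as 0. Irf1 held a GAS motif at -90 to -82. Irf2 held an ISRE core at -241 to -232 and a GAS motif at -224 to -216. Stat2 held an ISRE core on the opposite strand at -222 to -213. Ifnar1 held a GAS motif at -5 to 3 and Ifnar2 one at -214 to -206. Irf7, printed last, was added after its values were seen, since the results turn on it.
Irf1 (chr11:53769764-53770063, + strand): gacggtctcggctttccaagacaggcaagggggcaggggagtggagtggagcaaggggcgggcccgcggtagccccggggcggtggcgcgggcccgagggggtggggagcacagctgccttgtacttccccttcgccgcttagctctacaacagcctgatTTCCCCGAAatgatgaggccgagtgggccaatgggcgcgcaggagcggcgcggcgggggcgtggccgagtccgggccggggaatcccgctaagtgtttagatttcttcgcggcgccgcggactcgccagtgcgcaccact
Irf2 (chr8:46739495-46739794, + strand): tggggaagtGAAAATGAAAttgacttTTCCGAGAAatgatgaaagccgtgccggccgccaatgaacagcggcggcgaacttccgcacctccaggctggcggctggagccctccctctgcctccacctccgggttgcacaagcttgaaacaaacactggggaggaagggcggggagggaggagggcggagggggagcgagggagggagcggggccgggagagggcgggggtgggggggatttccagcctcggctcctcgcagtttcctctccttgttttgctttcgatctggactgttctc
Stat2 (chr10:128270248-128270547, + strand): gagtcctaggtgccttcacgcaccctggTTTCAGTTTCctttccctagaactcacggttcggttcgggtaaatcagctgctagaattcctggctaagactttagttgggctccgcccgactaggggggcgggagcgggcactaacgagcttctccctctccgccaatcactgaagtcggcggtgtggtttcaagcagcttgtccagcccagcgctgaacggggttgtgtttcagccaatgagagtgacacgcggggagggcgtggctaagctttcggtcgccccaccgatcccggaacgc
Ifnar1 (chr16:91484965-91485264, + strand): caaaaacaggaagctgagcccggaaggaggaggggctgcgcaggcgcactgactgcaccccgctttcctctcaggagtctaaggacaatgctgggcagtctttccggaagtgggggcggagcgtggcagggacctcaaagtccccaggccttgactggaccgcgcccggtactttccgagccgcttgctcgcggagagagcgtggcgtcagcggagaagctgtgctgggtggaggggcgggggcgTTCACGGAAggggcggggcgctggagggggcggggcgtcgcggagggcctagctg
Ifnar2 (chr16:91372533-91372832, + strand): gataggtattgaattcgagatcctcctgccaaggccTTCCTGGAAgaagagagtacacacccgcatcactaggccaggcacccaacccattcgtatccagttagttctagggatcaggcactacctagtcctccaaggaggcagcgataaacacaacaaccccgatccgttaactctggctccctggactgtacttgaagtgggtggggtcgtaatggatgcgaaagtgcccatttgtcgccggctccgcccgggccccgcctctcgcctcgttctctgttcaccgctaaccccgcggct
Irf7 (chr7:141266375-141266674, - strand): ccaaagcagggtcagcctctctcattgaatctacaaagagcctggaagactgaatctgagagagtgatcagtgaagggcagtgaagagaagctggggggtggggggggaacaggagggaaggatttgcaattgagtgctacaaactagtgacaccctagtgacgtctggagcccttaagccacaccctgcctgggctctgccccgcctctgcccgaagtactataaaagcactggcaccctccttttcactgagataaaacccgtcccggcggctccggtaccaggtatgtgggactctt

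The CpG content of these windows ran from 7 sites in Irf7 to 35 in Irf5. Irf9 held 9, Irf3 and Ifnar2 18 each, Irf2 19, Stat2 22, Ifnar1 26 and Irf1 32. A second RefSeq start of Irf1 gave 43 sites and one of Irf9 gave 1. All 32851 windows had a median of 7 and quartiles of 3 and 20, so Irf7, the gene with the largest azacitidine difference here, had a promoter window with the median number of sites. No methylation was measured in these files.

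Ifnar1 (ENSMUSG00000022967, chr16:91485238-91507441, + strand, GRCm38) encodes the low-affinity subunit of the receptor. In R882H it stood at 110, 77.6, 103, 95.8 and 100.3 CPM in azacitidine replicates 1 to 5 and at 47.6, 60.6, 118 and 106 CPM in NaCl replicates 1 to 4. In WT it stood at 89.0, 64.7 and 69.5 CPM with azacitidine and at 63.2, 70.2, 98.2 and 94.5 CPM with NaCl. All 4 groups overlapped, and the 2 lowest libraries of the 16 were replicates 1 and 2 of R882H with NaCl. The edgeR log2 difference between azacitidine and NaCl was 0.23 (SE 0.24, adjusted p = 0.870) in R882H and -0.13 (SE 0.27, adjusted p = 0.965) in WT. Without single libraries it ran from 0.036 to 0.44 in R882H, lowest without NaCl replicate 1 and highest without NaCl replicate 3, and from -0.28 to -0.029 in WT.

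Ifnar2 (ENSMUSG00000022971, chr16:91372783-91405589, + strand) encodes the subunit that binds interferon tightly and lies beside Ifnar1 on the chromosome. It stood at 129, 118, 139, 129 and 136 CPM in R882H with azacitidine and at 113, 94.7, 122 and 118 CPM in R882H with NaCl. In WT it stood at 153, 126 and 129 CPM with azacitidine and at 126, 135, 128 and 123 CPM with NaCl. Each of the 4 R882H libraries with NaCl was below each of the 4 WT libraries with NaCl, at 122 CPM or less against 123 CPM or more, and among all tested genes 1.09% were lower without overlap in this comparison. The edgeR difference was -0.20 (SE 0.11, adjusted p = 0.950), and it was -0.13 without R882H with NaCl replicate 2. With azacitidine against NaCl in R882H the difference was 0.22 (SE 0.11, 95% interval -0.01 to 0.45, adjusted p = 0.759), and replicate 2 of R882H with azacitidine lay among the controls. Exons of Ifnar2 share 9.46% of their bases with Gm21970 on the same strand, a model with no row in the count files.

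Stat2 (ENSMUSG00000040033, chr10:128270559-128292849, + strand) encodes the STAT that ISGF3 needs for its contact with the transcription machinery. It stood at 75.3, 52.4, 59.7, 63.7 and 73.0 CPM in R882H with azacitidine and at 36.7, 46.8, 79.3 and 76.0 CPM in R882H with NaCl. WT libraries gave 55.5, 41.3 and 50.6 CPM with azacitidine and 48.9, 57.2, 76.2 and 64.6 CPM with NaCl. The groups overlapped in every comparison, and the NaCl groups of both genotypes each held a lower and a higher pair of libraries. Fitted by edgeR, azacitidine against NaCl gave 0.12 (SE 0.21, adjusted p = 0.925) in R882H and -0.33 (SE 0.24, adjusted p = 0.887) in WT.

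Irf9 (ENSMUSG00000002325, chr14:55603571-55610030, + strand) encodes the DNA-binding part of ISGF3. It stood at 139, 131, 129, 119 and 122 CPM in R882H with azacitidine and at 101, 87.4, 144 and 132 CPM in R882H with NaCl. It stood at 82.5, 90.7 and 109 CPM in WT with azacitidine and at 117, 92.7, 153 and 125 CPM in WT with NaCl. Every R882H library with azacitidine was above every WT library with azacitidine, as was true of 5.05% of all tested genes. The edgeR difference between R882H and WT under azacitidine was 0.44 (SE 0.18, 95% interval 0.06 to 0.83, adjusted p = 0.533). It was 0.68 within libraries numbered 1 and 2 and 0.17 within those numbered 3 and above, the last from 1 treated WT library. In WT, azacitidine against NaCl gave -0.37 (SE 0.19, adjusted p = 0.860), and the groups overlapped because NaCl replicate 2, at 92.7 CPM, lay among the treated libraries.

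Irf3 (ENSMUSG00000003184, chr7:44997648-45002848, + strand) encodes the factor that waits in the cytoplasm and starts interferon transcription once phosphorylated. It stood at 115, 131, 132, 125 and 112 CPM in R882H with azacitidine and at 117, 99.0, 105 and 119 CPM in R882H with NaCl. It stood at 114, 139 and 125 CPM in WT with azacitidine and at 137, 131, 120 and 116 CPM in WT with NaCl. No library fell outside 99.0 to 139 CPM, and all groups overlapped. The 2 edgeR differences between azacitidine and NaCl were 0.16 (SE 0.11) in R882H and 0.0019 (SE 0.12, 95% interval -0.26 to 0.26) in WT.

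Irf7 (ENSMUSG00000025498, chr7:141262706-141266481, - strand) encodes the factor that amplifies interferon production and is itself induced by interferon. In WT it stood at 20.2, 21.2 and 35.7 CPM in azacitidine replicates 1 to 3 and at 52.0, 42.2, 54.4 and 47.1 CPM in NaCl replicates 1 to 4. The groups did not overlap, as was true of 2.79% of tested genes in the same direction. The edgeR log2 difference was -0.93 (SE 0.25, 95% interval -1.45 to -0.41, adjusted p = 0.656), and its unadjusted p ranked 45 of 18341 genes. DESeq2 gave -0.93 with an adjusted p of 0.0752. Treated replicate 3 lay closest to the controls, and without it edgeR gave -1.25 (adjusted p = 0.0919). Treated replicate 1, the lowest for Irf7, was also the library with the highest share of repeat counts. As single libraries were left out, the difference ran from -1.25 to -0.78.

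In R882H, Irf7 stood at 53.0, 48.3, 43.2, 34.8 and 32.1 CPM in azacitidine replicates 1 to 5 and at 39.6, 29.1, 50.4 and 50.3 CPM in NaCl replicates 1 to 4. The group means were 42.3 ± 8.83 CPM (SD, n = 5) with azacitidine and 42.3 ± 10.1 CPM (SD, n = 4) with NaCl, and the groups overlapped. The direction differed with library number. In numbers 1 and 2 the mean was 50.7 CPM with azacitidine and 34.4 CPM with NaCl. In numbers 3 and above it was 36.7 CPM with azacitidine and 50.3 CPM with NaCl. Fitted within these sets, edgeR gave 0.56 (SE 0.26, adjusted p = 0.339) for numbers 1 and 2 and -0.47 (SE 0.14, adjusted p = 0.138) for numbers 3 and above.

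The WT difference of Irf7 had the same sign in both sets, -1.21 (SE 0.27, adjusted p = 0.842) in numbers 1 and 2 and -0.52 (SE 0.19, adjusted p = 0.249) in numbers 3 and above. The last value rests on a single treated library, assumed to vary like the other groups. Over all libraries, the azacitidine response of Irf7 was more positive in R882H than in WT by 0.93 (SE 0.32, adjusted p = 0.763). Within numbers 1 and 2 that difference was 1.77 (SE 0.38, adjusted p = 0.276), and within numbers 3 and above it was 0.05 (SE 0.23, adjusted p = 0.977). Likewise, R882H exceeded WT under azacitidine by 0.72 (SE 0.24, adjusted p = 0.533) over all libraries, by 1.33 (adjusted p = 0.219) in numbers 1 and 2, and by 0.04 (adjusted p = 0.935) in numbers 3 and above. Both genotype differences of Irf7 were thus near 0 in libraries numbered 3 and above, where each rests on the same single treated WT library. Whether the sets differ was not tested.

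**Figure D2:**
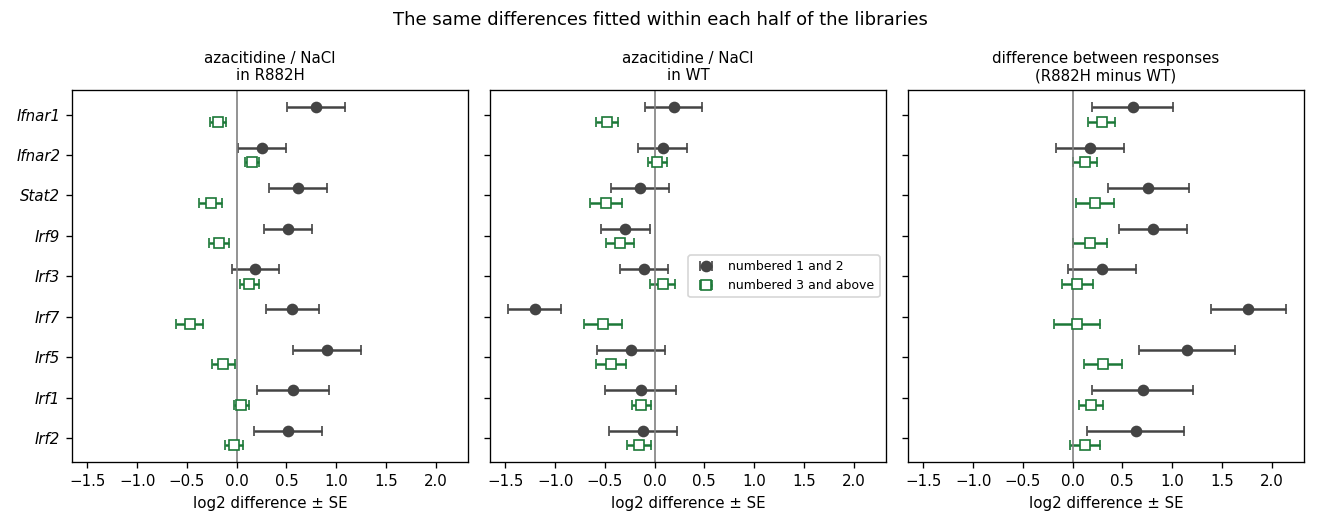
Log2 difference ± SE from edgeR (horizontal axis) for the 9 genes, fitted within libraries numbered 1 and 2 (filled circles) and within those numbered 3 and above (open squares), for azacitidine against NaCl in R882H (left), in WT (middle) and the difference between both responses (right). For Irf7 the difference between responses is 1.77 in numbers 1 and 2 and 0.05 in numbers 3 and above. The latter set holds 1 WT library with azacitidine.

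Irf5 (ENSMUSG00000029771, chr6:29526625-29541871, + strand) is known for driving inflammatory cytokines downstream of Toll-like receptors. It stood at 47.0, 51.2, 49.3, 39.7 and 47.0 CPM in R882H with azacitidine and at 35.1, 17.4, 46.7 and 51.7 CPM in R882H with NaCl. WT libraries held 30.2, 39.8 and 42.5 CPM with azacitidine and 39.7, 41.7, 57.7 and 56.9 CPM with NaCl. The groups overlapped, with R882H with NaCl replicate 2 far below all others. The edgeR difference between responses, R882H minus WT, was 0.70 (SE 0.37, adjusted p = 0.763). Exons of Irf5 share 14.1% of their bases with Tnpo3 on the opposite strand, and the strand setting of the counting is not given, so reads of the pair cannot be told apart there. Smaller overlaps were 3.40% for Irf1 with Gm17334, 2.56% for Irf3 with Bcl2l12 and 1.19% for Irf7 with Phrf1, all on the opposite strand, and 2.28% for Irf9 with Rnf31 on the same strand.

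Irf1 (ENSMUSG00000018899, chr11:53770014-53778374, + strand) stood at 203, 173, 197, 185 and 192 CPM in R882H with azacitidine and at 178, 76.6, 184 and 183 CPM in R882H with NaCl. In WT it stood at 134, 144 and 181 CPM with azacitidine and at 157, 145, 203 and 191 CPM with NaCl. A single library, R882H with NaCl replicate 2, lay outside the range of 134 to 203 CPM that held the other 15. The edgeR difference between azacitidine and NaCl was 0.29 (SE 0.21, adjusted p = 0.815) in R882H and -0.19 (SE 0.24, adjusted p = 0.944) in WT, and without that library the R882H difference was 0.07.

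Irf2 (ENSMUSG00000031627, chr8:46739732-46847458, + strand), the antagonist of Irf1, stood at 151, 123, 134, 124 and 140.0 CPM in R882H with azacitidine and at 130.0, 62.2, 125 and 142 CPM in R882H with NaCl. In WT it stood at 99.4, 104 and 124 CPM with azacitidine and at 120, 98.5, 141 and 134 CPM with NaCl. It was low in the same R882H library as Irf1, and the groups overlapped in every comparison. The edgeR difference between azacitidine and NaCl was 0.23 (SE 0.19, adjusted p = 0.842) in R882H, 0.02 without that library, and -0.17 (SE 0.22, adjusted p = 0.944) in WT. R882H with NaCl replicate 2, lowest also for Irf3, Irf5 and Ifnar2, had the lowest LSK marker sum and the highest erythroid marker sum, 5571 CPM over 7 genes against 156 to 1648 CPM in the other 15 libraries. The part of these cells in the low values was not tested.

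Across the pathway, azacitidine against NaCl in R882H called 0 of the 9 genes in edgeR at an adjusted p under 0.05, as against 0.00545% of all 18341 genes, and none had an unadjusted p under 0.05, which 2.24% of all genes had on the higher and 4.45% on the lower side. The fitted difference was positive in 8 of 9, where 44.3% of all genes were positive, with a median of 0.22 over the 9 and -0.04 over all genes. Erythroid and T and NK cell markers were mostly lower in the same comparison at an unadjusted p under 0.05, with 0 called. These were 7 of 7 erythroid genes (median -2.47) and 6 of 9 tested T and NK cell genes (median -2.46). Mature neutrophil genes went the other way, with 7 of 7 positive (median 1.10), as did 6 of 7 tested B and plasma cell genes (median 0.31). None of the neutrophil or B and plasma genes was under an unadjusted 0.05. Erythroid sums were 265 to 480 CPM with azacitidine and 1648, 5571, 169 and 156 CPM in NaCl replicates 1 to 4. The sums of all 10 T and NK genes overlapped, at 398 to 610 CPM with azacitidine and 312 to 631 CPM with NaCl. Most of each sum was Nkg7, and Cd8a was at 0 in 11 of 16 libraries. The part of these cells in the members' differences was not tested. In DESeq2 0 were called, and Ifnar2 alone was under an unadjusted 0.05. The direction was not shared by both sets of libraries: in numbers 1 and 2 all 9 differences were positive, from 0.19 for Irf3 to 0.91 for Irf5, and in numbers 3 and above 6 were negative, from -0.03 for Irf2 to -0.47 for Irf7.

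In WT, azacitidine against NaCl called 0 of the 9 genes in edgeR, with a background of 0%, and 0 in DESeq2. Irf7 was the single gene under an unadjusted 0.05, against 2.03% of all genes on the lower side. The difference was negative in 7 of 9, where 48.1% of all genes were negative, with a median of -0.19 over the 9 and 0.01 over all genes. Irf3 and Ifnar2, at 0.0019 and 0.09, were the exceptions, and both turned negative in some alternatives. Of the 12 LSK markers 10 were negative in this comparison, with a median of -0.28.

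The difference between both azacitidine responses was positive, that is more positive in R882H, in 9 of 9 genes, against 46.0% of all genes. The median was 0.45 over the 9 and -0.05 over all genes. EdgeR and DESeq2 each called 0 of them (background 0% in edgeR), and in edgeR Irf7 alone was under an unadjusted 0.05, against 1.16% of all genes on that side. Below Irf7 came Irf5 at 0.70, Irf9 at 0.51 (SE 0.25), Irf1 at 0.48 (SE 0.32), Stat2 at 0.45 (SE 0.32), Irf2 at 0.40 (SE 0.29), Ifnar1 at 0.36 (SE 0.36), Irf3 at 0.16 (SE 0.16) and Ifnar2 at 0.13 (SE 0.16). Numbers 1 and 2 gave 0.18 to 1.77, and numbers 3 and above 0.05 to 0.31, with all 9 positive in each set. In numbers 3 and above, WT with azacitidine has 1 library, which enters the differences of all 9 genes. The LSK markers were positive in 12 of 12 as well, with a median of 0.33, so the direction was not particular to this pathway. Several members followed each other over the libraries, so the 9 are not separate observations. The part of cell content in these differences was not tested.

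Under azacitidine, R882H against WT called 0 of the 9 in edgeR (background 0.00545%) and 0 in DESeq2. Irf7 and Irf9 were higher in R882H at an unadjusted p under 0.05 in edgeR, a side that held 2.65% of all genes. The difference was positive in 7 of 9, where 47.9% of all genes were positive, with a median of 0.32 over the 9 and -0.02 over all genes. Ifnar2 at -0.06 (SE 0.12) and Irf3 at -0.03 (SE 0.12) were the others. All 12 LSK markers were positive in the same comparison, with a median of 0.45. Under NaCl, R882H against WT called 0 of the 9 in edgeR (background 0.00545%) and 0 in DESeq2, with 0 under an unadjusted 0.05 in edgeR, where 3.64% of all genes lay on the higher and 1.96% on the lower side. The difference was negative in 8 of 9, where 45.8% of all genes were negative, with a median of -0.17 over the 9, from -0.38 (SE 0.25) for Irf5 to 0.03 (SE 0.25) for Ifnar1. These comparisons share libraries with those between treatments and add no separate support to them.

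**Figure D3:**
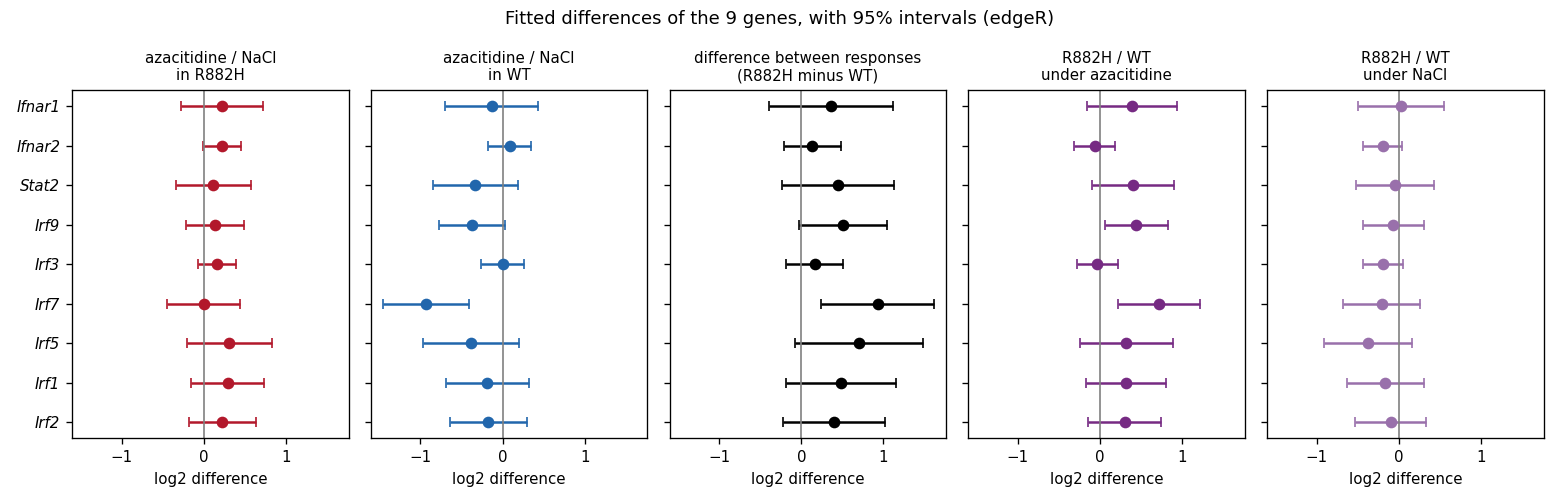
Fitted log2 difference with its 95% interval from edgeR (horizontal axis) for the 9 genes in the 5 comparisons: azacitidine against NaCl in R882H and in WT, the difference between both responses, and R882H against WT under azacitidine and under NaCl. The interval of Irf7 leaves out 0 in WT, in the difference between responses and under azacitidine, and that of Irf9 under azacitidine, before any adjustment for the 18341 genes tested.

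Among the 8 NaCl libraries, the receptor subunit Ifnar1 stood at 47.6 to 70.2 CPM in numbers 1 and 2 and at 94.5 to 118 CPM in numbers 3 and 4. Stat2 stood at 36.7 to 57.2 CPM against 64.6 to 79.3 CPM, Irf9 at 87.4 to 117 against 125 to 153 CPM, Irf5 at 17.4 to 41.7 against 46.7 to 57.7 CPM and Irf1 at 76.6 to 178 against 183 to 203 CPM. These 5 genes did not overlap between the sets, while Irf2, Irf3, Irf7 and Ifnar2 did, and 15.0% of all 18341 genes were likewise lower without overlap. The log2 ratio of means, numbers 1 and 2 over 3 and 4, was lowest for Ifnar1, at -0.79, and closest to 0 for Ifnar2, at -0.07. LSK marker sums moved with it, at 1963 to 3430 CPM in numbers 1 and 2 and 5022 to 5340 CPM in numbers 3 and 4. Granulocyte and monocyte priming genes went the other way, with sums of 2095 to 4943 CPM in numbers 1 and 2 and 1523 to 1782 CPM in numbers 3 and 4. The part of either in the split was not tested. In R882H with azacitidine the log2 ratio of means, numbers 1 and 2 over 3 to 5, was closer to 0. Over these 5 genes it ran from -0.08 for Ifnar1 to 0.13 for Irf9.

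Levels of several members followed each other over the 16 libraries, a description in which the points share libraries and their groups. Pearson's r of log2 CPM was 0.98 between Irf1 and Irf2, 0.94 between Stat2 and Ifnar1, 0.91 between Irf1 and Irf5, 0.88 between Irf2 and Irf5, and 0.81 between Irf7 and Irf9. The lowest values were those of Irf3, with r from -0.31 with Stat2 to 0.42 with Ifnar2, and of Ifnar2, with r from -0.17 with Irf7 to 0.49 with Irf1. Among 11116 other genes of at least 1 log2 CPM on average, those most like Irf7 were Ifit1, an interferon-induced RNA-binding protein, at 0.92, Fcgrt at 0.90 and Rab3il1 at 0.90. The closest to Irf9 were Prkch at 0.95, Gbp2, an interferon-induced GTPase, at 0.95, and Mgrn1 at 0.94. Vasp, at 0.96 each, was the most like Irf1 and Irf2, with Sh3bp5 next for both. Irf5 was most like the stem cell homeobox gene Hoxa9, at 0.97, then Rgs14 and Rnf122. Stat2 was most like Mprip (0.95), Kif16b and Slc25a23. Ifnar1 was most like Slc39a6 (0.97), Tbc1d1 and Osbpl11, Ifnar2 most like Rasa4 (0.94), Adgrg3 and Ino80dos, and Irf3 most like Nudt14 (0.93), Clic1 and Pigx.

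The ligands were at the edge of detection. Of 20 interferon genes listed, 7 had a row and 0 passed the filter on low counts. Ifnb1, the first interferon made after infection, was at 0 in 12 of 16 libraries and reached 0.0856 CPM at most. Ifng was at 0 in 11 and reached 1.21 CPM. The other receptor genes were present: Ifngr1 at 204 to 488 CPM, Ifngr2 at 33.4 to 60.2 CPM and Il10rb at 50.02 to 85.5 CPM, while Ifnlr1, the lambda receptor, was at 0 in 7 libraries. None of the 3 tested receptor genes was called in any comparison.

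A list of 46 tested interferon targets, none of them a member, lay lower with azacitidine in WT, where 39 were negative and 7 positive, with a median of -0.33 against 0.01 over all genes. None was called in edgeR, and 9 were lower at an unadjusted p under 0.05, a side that held 2.03% of all genes. The mean log2 CPM of the 46 was 4.13, 3.83 and 4.50 in WT azacitidine replicates 1 to 3. It was 4.55, 4.39, 4.70 and 4.70 in WT NaCl replicates 1 to 4, so treated replicate 3 lay among the controls. The targets share these libraries, so the 46 are not separate observations. Ifit3 stood at 0.432, 0.379 and 1.80 CPM in WT with azacitidine and at 4.93, 2.40, 5.24 and 5.27 CPM in WT with NaCl. Those groups did not overlap, and edgeR gave -2.36 (SE 0.54, adjusted p = 0.639). Lgals3bp, a secreted scavenger-receptor glycoprotein, stood at 188, 225 and 260 CPM with azacitidine and at 362, 285, 354 and 338 CPM with NaCl, a difference of -0.58 (SE 0.18, adjusted p = 0.802). In R882H the 46 split into 21 positive and 25 negative, with a median of -0.02, and 1 was higher and 3 lower at an unadjusted p under 0.05, against 2.24% and 4.45% of all genes. Over the difference between responses 37 were positive, with a median of 0.26, and 0 were called. Of all genes, 46.0% were positive in that difference and 48.1% were negative in WT.

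Of 22 targets of IRF1 and interferon gamma, which include antigen-processing and GTPase genes, 15 were negative in WT with azacitidine (median -0.16). In R882H 16 were positive (median 0.11), and in the difference between responses 20 were positive (median 0.35). The shares over all genes were 48.1%, 44.3% and 46.0% in turn. None was called. The interferon-induced GTPase genes Igtp and Irgm1 gave 0.92 (SE 0.45) and 0.47 (SE 0.26) in that difference. Of the 8 other IRF, STAT and JAK genes, 6 were negative in WT, against 48.1% of all genes, and 0 were called. Jak1, the kinase on IFNAR2, was higher in R882H than in WT under azacitidine by 0.64 (SE 0.28, adjusted p = 0.533).

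Of 11 brakes on the pathway, 8 were negative with azacitidine in WT, as were 48.1% of all genes, and 0 were called. Usp18, which blocks the receptor at IFNAR2, stood at 15.1, 19.0 and 25.9 CPM in WT with azacitidine and at 31.5, 27.3, 28.0 and 25.8 CPM in WT with NaCl, an edgeR difference of -0.49 (SE 0.20, adjusted p = 0.825). The groups overlapped by treated replicate 3 and NaCl replicate 4. Of 15 tested sensors, adaptors and kinases, 11 were negative in WT, against the same 48.1%, and 0 were called. The double-stranded RNA sensor Ifih1 and its adaptor Mavs were higher in R882H than in WT under azacitidine by 0.70 (SE 0.27) and 0.39 (SE 0.17), both with an adjusted p of 0.533 in edgeR. The DNA sensor Cgas and its adaptor Tmem173 gave 0.42 (SE 0.17) and 0.43 (SE 0.20) for azacitidine against NaCl in R882H, with adjusted p-values of 0.661 and 0.738.

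To ask which members follow the targets library by library, each gene's log2 CPM was set against the mean log2 CPM of the 46 targets, within the 8 libraries numbered 1 and 2 and within the 8 numbered 3 and above. Each set holds libraries of all 4 groups, so differences between groups enter these relations, and treated WT replicates 1 and 2 were lowest for Irf7. The permutation treats the 8 libraries of a set as exchangeable, so its p does not measure a relation within groups. Irf7 is itself induced by interferon, so its r with other induced genes does not show which gene acts on which. For Irf7 in numbers 1 and 2, r was 0.90 (exact two-sided permutation p = 0.00546, adjusted p = 0.0491 over 18 relations) and rho 0.76 (exact p = 0.0368, adjusted p = 0.110). In numbers 3 and above, r was 0.81 (exact p = 0.0273, adjusted p = 0.118) and rho 0.81 (exact p = 0.0218, adjusted p = 0.0784), neither past the adjusted threshold. Leaving out the 2 libraries farthest from the median score, r was 0.91 and 0.92.

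Ifnar2 went the other way in numbers 3 and above, with r of -0.86 (exact permutation p = 0.00506, adjusted p = 0.0491) and rho of -0.81 (adjusted p = 0.0784). Without the 2 libraries farthest from the median score, r was -0.66 (exact permutation p = 0.175 over the other 6), and in numbers 1 and 2 r was 0.07. Irf1 in numbers 1 and 2 had r of 0.69 (adjusted p = 0.118) and rho of 0.93 (exact permutation p = 0.00223, adjusted p = 0.0402), and in numbers 3 and above r was -0.14. Irf9 had r of 0.80 in numbers 1 and 2 and 0.61 in numbers 3 and above, neither past the adjusted threshold. Of the 18 relations 2 passed on Pearson's r, Irf7 in numbers 1 and 2 and Ifnar2 in numbers 3 and above. That count was 0 after leaving out any of these libraries: numbers 1, 2 and 4 of treated R882H, numbers 1, 2 and 3 of R882H controls, numbers 1 and 3 of treated WT, and numbers 1, 2 and 4 of WT controls. It was 4 without WT with azacitidine replicate 2.

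**Figure D4:**
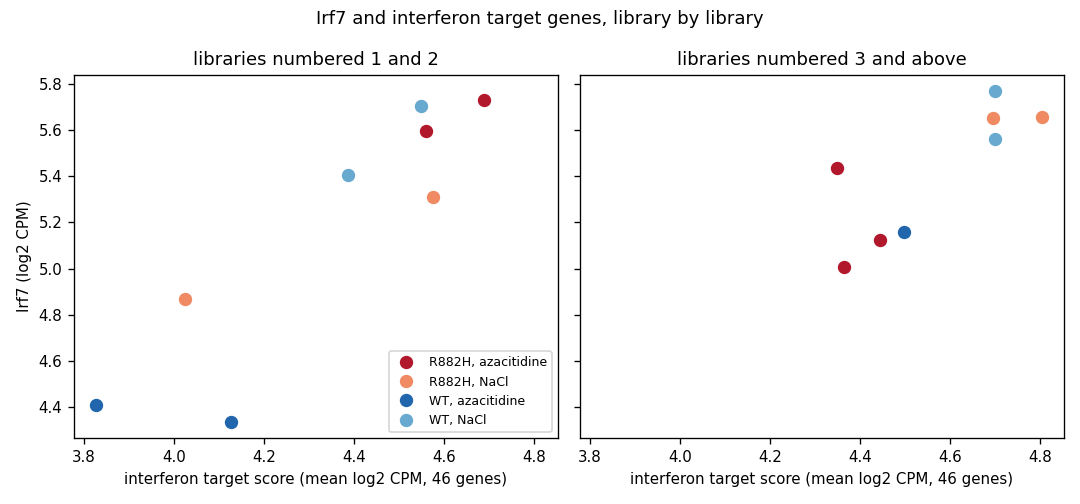
Irf7 (vertical axis, log2 CPM) against the mean of 46 interferon targets (horizontal axis, log2 CPM) for the 8 libraries numbered 1 and 2 (left) and the 8 numbered 3 and above (right), 1 point per library coloured by group. In both panels libraries with more Irf7 tend to have a higher target mean, with r of 0.90 on the left and 0.81 on the right, and the WT azacitidine replicates 1 and 2 are lowest on the left.

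Plasmacytoid dendritic cells, which express Irf7 highly, were followed through 6 markers. Their summed level was 11.4 to 16.3 CPM in WT with azacitidine and 17.1 to 36.03 CPM in WT with NaCl, so these groups did not overlap, and all 4 tested markers were negative. It was 10.2 to 15.1 CPM in R882H with azacitidine and 6.32 to 50.1 CPM in R882H with NaCl. Klk1 was at 0 in 15 of 16 libraries, and Siglech, their defining surface receptor, at 0 in 1 and at a median of 0.527 CPM. Cox6a2 and Ccr9 had the highest medians, 7.15 and 4.29 CPM, and the other markers 1.29 CPM or less, so the sum leans on these genes. In numbers 3 and above of R882H the sums overlapped, at 10.2 to 13.5 CPM with azacitidine and 12.6 to 16.8 CPM with NaCl. Irf7 stood in these libraries at 32.1 to 43.2 CPM with azacitidine and at 50.3 to 50.4 CPM with NaCl. Granulocyte and monocyte priming genes, 8 of 8 of them positive in WT, summed to 4364, 9945 and 1568 CPM in WT with azacitidine and to 2889, 3755, 1782 and 1523 CPM in WT with NaCl. Replicates 1 and 2, highest for these genes among the treated, were lowest for Irf7. The part of either cell type in the Irf7 levels was not tested.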

How the data were processed

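The 9 genes, the other gene lists and the split by library number were chosen with earlier results of these data known. The deposited files hold, per library, the authors' raw counts per gene and repeat family. The submitters' processing notes name HISAT2 2.0.5, featureCounts 1.6.2 and the build GRCm38 (mm10). The strand and multi-mapping settings and the design behind edgeR 3.26.6, also named there, are not given in the sources used here. FPKM values, deposited in separate files, scale these counts by gene length and an effective library size and were used only to rank genes against each other. RNA with a RIN under 8 was left out by the authors and a low-input kit was used to amplify cDNA, with inserts of about 200 bp, per the labels' protocols. The reads carry no molecular identifiers. Repeat families stayed out of library sizes and tests.

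Of 30141 gene IDs, 30100 had a symbol in GENCODE vM21. Genes were kept by filterByExpr, which left 18341, all 9 members among them, and a quasi-likelihood model with 1 coefficient per group was fitted to all 16 libraries with TMM library sizes (edgeR 4.0.16, limma 3.58.1, R 4.3.3). Benjamini-Hochberg adjustment ran over all 18341 genes, and a gene was called where the adjusted p was under 0.05. The model was tested on simulated data first. Alternatives were DESeq2 1.42.0, its size factors in edgeR, no filter, the 2 groups of a contrast alone, a replicate block, a term for library number, fits within numbers, each library left out, and the 2 doubted libraries, number 1 of R882H controls and number 1 of treated WT, left out together. Whether equal numbers pair libraries was checked by the correlation of deviations from group means. Only R882H against WT under NaCl had every pair over 0.1, at 0.10 to 0.34. Log2 CPM for correlations used a prior count of 2, and relations to the target score were tested by exact two-sided permutation with scipy 1.17.1. Named were all 9 members, up to 2 genes of lowest p per list and comparison, some of which are not reported here, and the 3 genes most like each member.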

Additional observations from a re-analysis of the deposited data

Results flagged for a closer look

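Irf1 in R882H with NaCl replicate 2, at 76.6 CPM, lay far from the other 3 libraries of its group, which held 178 to 184 CPM. Its gap to the nearest of them was 0.94 of the group's range, above the 95% critical value of Dixon's test for a group of 4. It was 1 of 27 gene and group combinations examined, and chance alone sets apart about 1 in 20. In the same library Irf2 stood at 62.2 CPM, Irf5 at 17.4 CPM and the erythroid markers at their highest sum, 5571 CPM.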

How the results depend on the processing

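None of the 9 genes was called in any comparison under any of 25 alternatives (24 for the difference between responses), while all genes together gave 0 to 233 calls. Of 1116 single-gene values, 1066 kept their sign and 50 did not. Azacitidine against NaCl in R882H changed sign for Irf7 with no filter (0.0050), with the replicate block (0.11), with a term for number (0.0098) and in numbers 1 and 2 (0.56), with -0.15 to 0.092 as libraries were left out in turn. In numbers 3 and above it changed sign for Irf2 (-0.027), Irf5 (-0.13), Irf9 (-0.18), Stat2 (-0.26) and Ifnar1 (-0.19). Stat2 gave -0.054 without both doubted libraries and -0.053 to 0.29 without single ones. In WT, Irf3 gave -0.0096 with no filter, -0.0032 with the number term, -0.11 in numbers 1 and 2 and -0.076 to 0.066 without single libraries. Ifnar1 gave 0.19 in numbers 1 and 2, and Ifnar2 -0.017 without both doubted libraries and -0.0073 to 0.13 without single ones.

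For R882H against WT under NaCl, Ifnar1 gave -0.0058 with the replicate block, -0.0056 with the number term, -0.28 in numbers 1 and 2 and -0.19 to 0.23 without single libraries. In numbers 3 and above Irf9 gave 0.00039 and Stat2 0.15, without both doubted libraries 0.0044 and 0.14, and without single libraries -0.19 to 0.062 and -0.21 to 0.13. Without single libraries Irf1 gave -0.26 to 0.060 and Irf2 -0.22 to 0.10. Under azacitidine, Irf3 gave 0.0026 in numbers 1 and 2 and -0.097 to 0.046 without single libraries. Ifnar2 gave 0.061 in numbers 3 and above, 0.053 without both doubted libraries and -0.11 to 0.031 without single ones. The cause was not tested. The replicate block changed no call of a member. The count of relations past the threshold, 2 of 18, was 0 to 4 without single libraries. With 3 to 5 libraries a group, differences of the size seen for most members could not be told from the spread.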
